A study of Rattus norvegicus with 4 samples.

Results

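Hemidesmosomes are the junctions that fasten basal keratinocytes to the basement membrane, and 9 genes of these junctions and their laminin ligands were followed in rat ear skin given Fgf7. The set was fixed by gene name among the 54532 genes of the count table: the integrin genes Itga6, Itgb4 and Itga3, the tetraspanin gene Cd151, the plakin genes Plec and Dst, and the laminin chain genes Lama3, Lama5 and Lamb3. All 9 names matched a single gene, 8 had counts, and 7 had enough counts to be tested. None of these 7 passed the test between AAV-Fgf7 and AAV-control ears, and neither did any other of the 6370 genes tested. The integrin pair Itga6 and Itgb4, and Plec by less, stood highest in the AAV-Fgf7 ear of rat 2, as did 25.1% of all tested genes. Lamb3, Dst, Lama5 and Cd151 were higher in the AAV-Fgf7 ear than in the control ear of rat 1, and lower in rat 2. This order was shared by 29.2% of all tested genes, and 29.9% had the opposite one. For Cd151 the order in rat 2 turned when counts were scaled by library totals only. These orders rest on which AAV-Fgf7 column belongs to which rat, which was inferred from number and title.

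In the epidermis, the Itga6 and Itgb4 products pair into the integrin of the hemidesmosome. This integrin binds laminin outside the cell and, through plectin (Plec) and the epithelial form of dystonin (Dst), the keratin filaments inside it. Its main ligand in the epidermal basement membrane is a laminin that holds the chains of Lama3 and Lamb3, and keratinocytes take hemidesmosomes apart and lay down this laminin when they migrate over a wound. Fibroblast growth factor 7 (FGF7, keratinocyte growth factor) is released by dermal cells and promotes growth and migration of keratinocytes.

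RNA-seq libraries came from ear skin of 2 Sprague Dawley rats, collected at the injection sites on day 3. AAV-Fgf7 ears received adeno-associated virus carrying Fgf7 and are labelled as Fgf7 overexpression in genotype, and AAV-control ears received a control virus and are labelled wild type. Each rat gave 1 ear to each group, so each group held 2 libraries. The promoter that drives Fgf7, the virus serotype and the rats' age were not given in the sources used here.

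Totals were 1433247 and 1417294 counts in AAV-Fgf7 ears of rats 1 and 2, and 1299136 and 1601321 counts in AAV-control ears. Counts from these rats stand under mouse gene identifiers, and the read assignment behind them was not given in the sources used here. Fgf7 had 454 and 1429 counts in AAV-Fgf7 ears of rats 1 and 2, against 94 and 110 in AAV-control ears, in the direction of the labels. The counts do not separate viral from native transcripts, and whether viral ones were counted is unknown. Summed markers of several cell types had different levels in the libraries of each group. Skeletal muscle markers (14 of 14 with a count) summed to 32662 and 15849 CPM (counts relative to the library total, scaled with TMM factors) in AAV-Fgf7 ears of rats 1 and 2, against 14962 and 61944 CPM in AAV-control ears. Hair follicle markers (11 of 13 in the table with a count, Krt35 and Krt72 at 0) summed to 3947 and 159 CPM, against 57.8 and 1219 CPM. Basal keratinocyte markers (Krt5, Krt14, Krt15 and Trp63, all with counts) summed to 1378 and 2957 CPM, against 1030 and 853 CPM, so the epithelium that carries hemidesmosomes was detected in every library. In whole tissue, fewer cells of a type and less RNA per cell cannot be told apart.

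The members spanned a wide range of levels per transcript length. In FPKM (counts scaled by the authors for gene length and library size), Cd151 was highest with a mean of 20.5 over the 4 libraries, followed by Plec at 10.3, Lamb3 at 7.50 and Itga6 at 7.06. Itgb4 followed at 1.75 FPKM, Lama5 at 0.726, Itga3 at 0.601 and Dst at 0.535, and Lama3 was listed at 0. Cd151 lay above Plec in every library, Plec above Lamb3, Itga6 above Itgb4, and Itgb4 above Lama5. The order of Lamb3 and Itga6 changed between libraries, as did that of Lama5, Itga3 and Dst. The FPKM ratio of Itga6 to Itgb4 was 4.09 and 3.29 in AAV-Fgf7 ears of rats 1 and 2, against 3.83 and 6.36 in AAV-control ears. These levels rest on the listed mouse gene lengths, and how much of each rat transcript was counted is unknown.

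**Figure D1:**
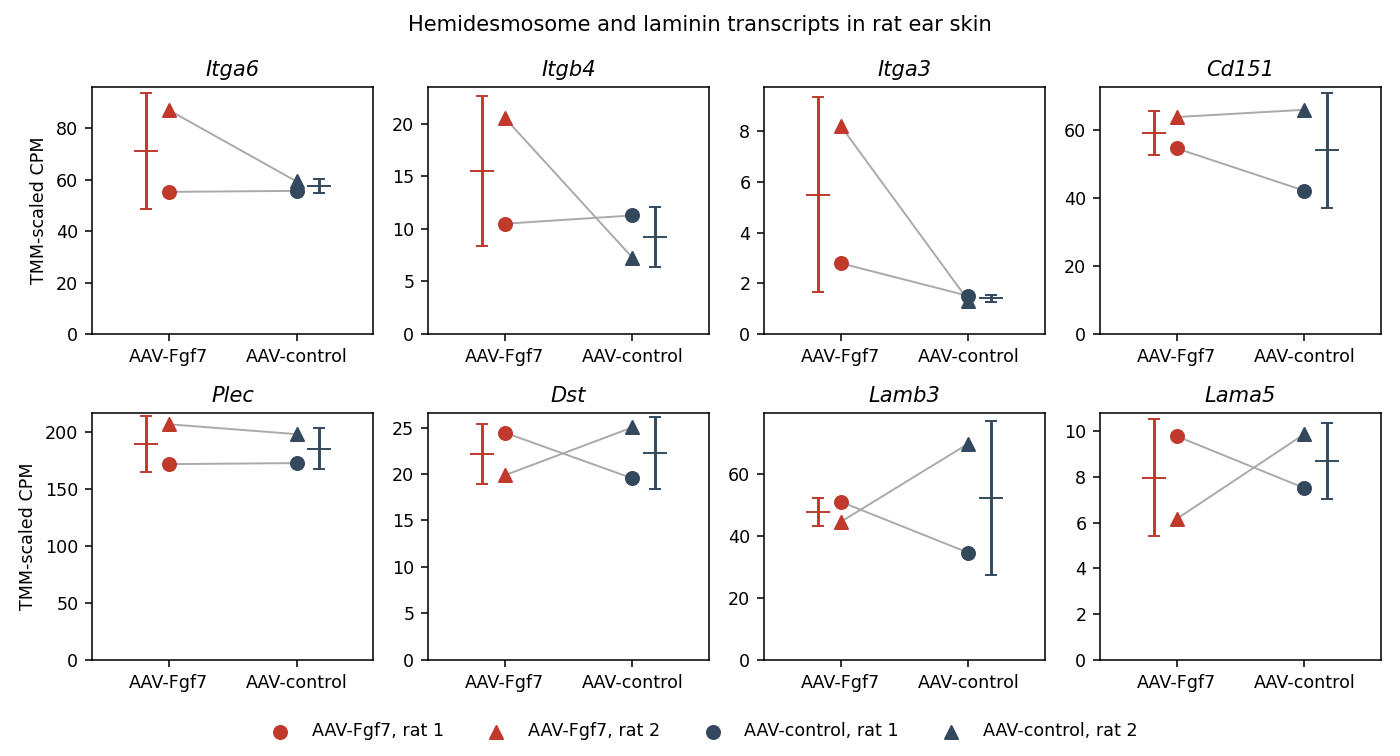
TMM-scaled CPM of the 8 members with counts, with AAV-Fgf7 ears at the left and AAV-control ears at the right of each panel. Circles are rat 1 and triangles rat 2, grey lines join the ears of a rat, and horizontal marks with bars are the mean and SD of 2 libraries. The groups of every tested member overlapped, and Itga3, with 2 to 12 counts a library, was not tested.

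Among the tested members, the integrin genes Itgb4 and Itga6 held the largest log2 fold changes. With the AAV-Fgf7 columns assigned to rats by number and title, the AAV-Fgf7 ear was the higher one in rat 2 only, for both genes. With these columns swapped, Itgb4 would be higher in the AAV-Fgf7 ear of both rats. Itgb4 encodes the beta subunit that pairs with the Itga6 product alone, and it is listed on mouse chromosome 11 from 115974709 to 116008412 (plus strand). It had 15 and 30 counts in AAV-Fgf7 ears of rats 1 and 2, or 10.5 and 20.5 CPM, against 15 and 11 counts, or 11.3 and 7.24 CPM, in AAV-control ears. The AAV-Fgf7 ear of rat 2 was the highest of the 4 libraries and its control ear the lowest, while the ears of rat 1 lay between them. Itgb4 averaged 15.5 ± 7.12 CPM in AAV-Fgf7 ears and 9.25 ± 2.85 CPM in AAV-control ears (SD, n = 2 each), a log2 fold change of 0.75 (SE 0.54). With edgeR the adjusted p over all genes tested was 0.9995 (0.212 unadjusted). The 95% interval of this log2 value ran from -0.56 to 2.06. It stood at 0.18 without the AAV-Fgf7 library of rat 2, at 0.46 without the AAV-control library of rat 2, and at 1.15 and 1.09 without the AAV-Fgf7 or the AAV-control library of rat 1.

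Itga6 encodes the alpha subunit that pairs with the Itgb4 product in the epidermis and with the Itgb1 product in other cells, including endothelium. It is listed on mouse chromosome 2 from 71745616 to 71858416 (plus strand). Its counts were 79 and 127 in AAV-Fgf7 ears of rats 1 and 2, against 74 and 90 in AAV-control ears. Scaled by library, these were 55.2 and 87.0 CPM, against 55.6 and 59.3 CPM. The AAV-Fgf7 ear of rat 2 stood above the other 3 libraries. The mean was 71.1 ± 22.5 CPM in AAV-Fgf7 ears and 57.4 ± 2.59 CPM in AAV-control ears (SD, n = 2 each). The log2 fold change was 0.31 (SE 0.31), with a 95% interval from -0.45 to 1.07 and an edgeR adjusted p of 0.9995. The value fell below 0, to -0.06, when the AAV-Fgf7 library of rat 2 was left out. Endothelial markers (8 of 10 with a count, Egfl7 and Emcn at 0) summed to 133 and 129 CPM in AAV-Fgf7 ears of rats 1 and 2, against 137 and 176 CPM in AAV-control ears.

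Itga3 encodes the alpha subunit of a laminin-binding integrin that pairs with the Itgb1 product outside the hemidesmosome and takes part in keratinocyte migration. It is listed on mouse chromosome 11 from 95044474 to 95076801 (minus strand) and had only 4 and 12 counts in AAV-Fgf7 ears of rats 1 and 2, against 2 and 2 in AAV-control ears. Both AAV-Fgf7 libraries therefore stood above both controls, at 2.79 and 8.22 CPM, against 1.50 and 1.32 CPM, but the gene was below the low-count filter. The ratio between the ears was 1.86 in rat 1 (95% counting interval 0.267 to 20.6) and 6.24 in rat 2 (1.39 to 57.4). In an edgeR fit with no filter, its log2 fold change was 1.91 (SE 0.98), with a p of 0.0713 and an adjusted p of 0.975. Counting intervals cover counting error only, since reads amplified by PCR are not independent molecules.

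Cd151, which encodes a tetraspanin that binds laminin-binding integrins and is found in hemidesmosomes, is listed on mouse chromosome 7 from 141467392 to 141471473 (plus strand). It stood at 54.5 and 63.7 CPM in AAV-Fgf7 ears of rats 1 and 2, against 42.1 and 65.8 CPM in AAV-control ears. Rat 2 was above rat 1 in both groups, and the AAV-Fgf7 values lay between the control values. The log2 fold change was 0.13 (SE 0.32), with a 95% interval from -0.66 to 0.91 and an edgeR adjusted p of 0.9995. Without the AAV-control library of rat 1 its direction turned, to -0.16.

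Plec was the most even member between the ears. It encodes plectin, which links the integrin to intermediate filaments and also anchors filaments in muscle, and is listed on mouse chromosome 15 from 76170974 to 76232574 (minus strand). With 246 and 302 counts in AAV-Fgf7 ears of rats 1 and 2 against 230 and 301 in AAV-control ears, it was the most deeply counted member. Its levels were 172 and 207 CPM, against 173 and 198 CPM, so the ears of a rat nearly coincided. The log2 fold change was 0.03 (SE 0.21), and its 95% interval from -0.48 to 0.54 was the narrowest of the 7 tested members. Leaving out 1 library moved this value between -0.11 and 0.15.

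Dst encodes dystonin, a linker of the cytoskeleton whose epithelial form ties keratin filaments to the hemidesmosome and whose other forms occur in nerve and muscle. The gene is listed on mouse chromosome 1 from 33908225 to 34308661 (plus strand), with a gene model of 41155 bases, and the counts do not separate its forms. Dst stood at 24.5 and 19.9 CPM in AAV-Fgf7 ears of rats 1 and 2, against 19.5 and 25.0 CPM in AAV-control ears. The order of the ears was opposite in the 2 rats. The log2 fold change of Dst was -0.01 (SE 0.36), its 95% interval ran from -0.89 to 0.87, and scaling by library totals only gave 0.03. Leaving out 1 library gave values from -0.18 to 0.19, positive without the AAV-Fgf7 library or the AAV-control library of rat 2 in turn (0.13 and 0.19).

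Of the laminin chain genes of the set with counts, Lamb3 varied more than Lama5 between the AAV-control ears. Lamb3 encodes the beta chain of the hemidesmosome ligand and is listed on mouse chromosome 1 from 193207699 to 193343878 (plus strand). It had 73 and 65 counts in AAV-Fgf7 ears of rats 1 and 2, against 46 and 106 in AAV-control ears. The corresponding levels were 51.0 and 44.5 CPM, against 34.6 and 69.8 CPM, so that the AAV-Fgf7 values lay between the lowest and the highest control. Lamb3 averaged 47.8 ± 4.58 CPM in AAV-Fgf7 ears and 52.2 ± 24.9 CPM in AAV-control ears (SD, n = 2 each). The log2 fold change was -0.13 (SE 0.39), with a 95% interval from -1.09 to 0.83 and an edgeR adjusted p of 0.9995. It stood at 0.47 when the AAV-control library of rat 2 was left out.

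Lama5, the alpha chain of the laminins that are widespread in adult basement membranes, is listed on mouse chromosome 2 from 180176373 to 180225859 (minus strand). It had 14 and 9 counts in AAV-Fgf7 ears of rats 1 and 2, against 10 and 15 in AAV-control ears, or 9.78 and 6.16 CPM, against 7.51 and 9.88 CPM. The groups overlapped, and the log2 fold change of -0.13 (SE 0.54) had a 95% interval from -1.44 to 1.18. It turned positive when either library of rat 2 was left out (0.16 without AAV-Fgf7, 0.09 without AAV-control). Lama3, which encodes the alpha chain that pairs with the Lamb3 product, was listed at 0 in all 4 libraries. Ilk, a linker used by most adherent cells, and Dcn, an abundant gene of dermal fibroblasts, were also listed at 0, so a 0 here does not show that a transcript was absent.

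Set side by side, the ears of each rat gave different pictures. Itgb4 was 2.84-fold higher in the AAV-Fgf7 ear of rat 2 (95% counting interval 1.38 to 6.28), and its ratio was 0.930 in rat 1 (0.424 to 2.04). The Itga6 ratio was 1.47 in rat 2 (1.11 to 1.95) and 0.993 in rat 1 (0.714 to 1.38). The Lamb3 ratio, by contrast, was 0.638 in rat 2 (0.461 to 0.877) and 1.48 in rat 1 (1.01 to 2.18). The Plec ratios were 1.04 in rat 2 and 0.995 in rat 1, both close to 1. With 1 ear per group and rat, a difference between the rats cannot be tested. All ratios within a rat also rest on which AAV-Fgf7 column belongs to which rat. This was taken from number and title, since both labels point to 1 column.

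Col17a1, which encodes the transmembrane collagen of hemidesmosomes, had the same order of ears as Itgb4 in each rat. It had 8 and 16 counts in AAV-Fgf7 ears of rats 1 and 2, against 9 and 5 in AAV-control ears. Its ratio between the ears was 3.33 in rat 2 (95% counting interval 1.17 to 11.6) and 0.827 in rat 1 (0.278 to 2.41). The gene was below the low-count filter. In the edgeR fit with no filter, its log2 fold change was 0.72 (SE 0.68), with a p of 0.305 and an adjusted p of 0.975.

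**Figure D2:**
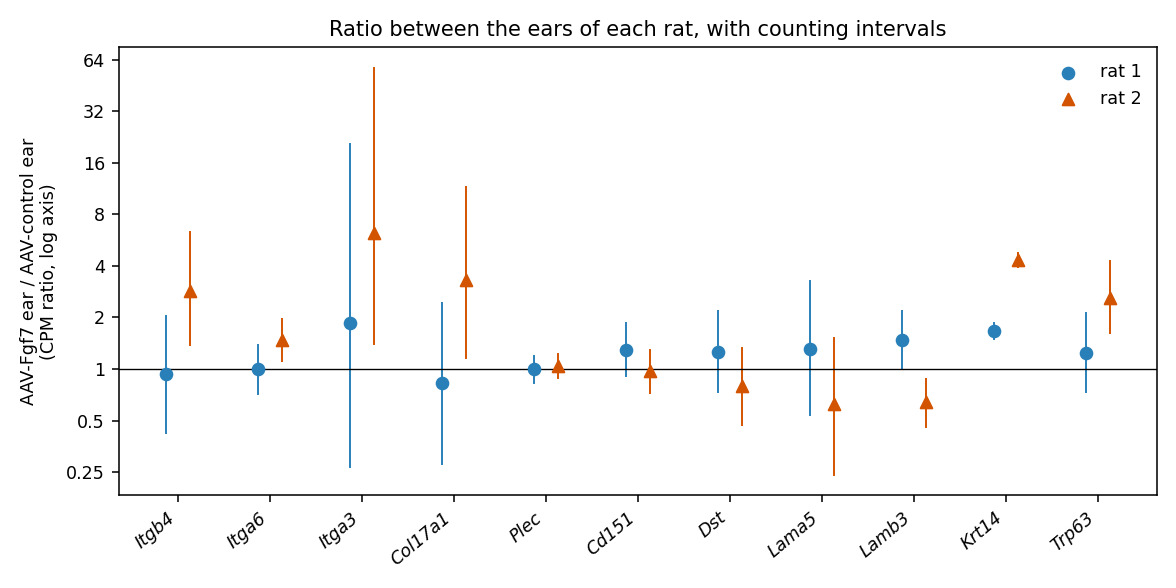
Ratio of TMM-scaled CPM in the AAV-Fgf7 ear to that in the AAV-control ear, on a log axis, for rat 1 (circles) and rat 2 (triangles), with lines for 95% counting intervals that leave out variation between animals. Itgb4, Itga6, Itga3 and Col17a1 have higher ratios in rat 2 than in rat 1, as do Krt14 and Trp63, and Lamb3, Lama5, Dst and Cd151 have lower ones.

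Markers of keratinocytes, and of muscle and other tissues, were highest in the same libraries as some members. The AAV-Fgf7 ear of rat 2, highest in Itgb4, Itga6, Plec and the untested Itga3, was also highest in Krt14, the basal keratin that hemidesmosomes anchor. Krt14 stood at 692 and 1579 CPM in AAV-Fgf7 ears of rats 1 and 2, against 416 and 366 CPM in AAV-control ears. The AAV-control ear of rat 2, highest in Lamb3, Dst, Lama5 and Cd151, was the library richest in skeletal muscle markers (61944 CPM). It was also highest in summed markers of cartilage (1315 CPM), smooth muscle and pericytes (404 CPM), endothelium (176 CPM) and adipocytes (163 CPM). Chad, Matn1, Tagln, Adipoq and Cidec of these lists were at 0, and Plin1 gave 162 CPM of the adipocyte sum. Some markers went another way than their sum. Acta2 was highest in the AAV-Fgf7 ear of rat 2 (235 against 221 CPM), and Tek in that of rat 1 (58.7 against 50.7 CPM). For Dst, Lama5 and Cd151 the AAV-control ear of rat 2 was highest only narrowly. Dst and Lama5 stood at 25.0 and 9.88 CPM there, against 24.5 and 9.78 CPM in the AAV-Fgf7 ear of rat 1. Cd151 stood at 65.8 CPM, against 63.7 CPM in the AAV-Fgf7 ear of rat 2. With counts scaled by library totals only, the AAV-control ear of rat 2 stayed highest for Lamb3 but not for Dst, Lama5 and Cd151. The AAV-Fgf7 ear of rat 1 was then highest for Dst and Lama5, and that of rat 2 for Cd151. The part of tissue make-up in the members' values was not tested. Per 100 Krt14 counts, Itgb4 had 1.51 and 1.30 counts in AAV-Fgf7 ears of rats 1 and 2, against 2.71 and 1.98 in AAV-control ears, and Itga6 had 7.97 and 5.51, against 13.4 and 16.2. All 7 tested members were lower on this scale in both AAV-Fgf7 libraries than in both controls, and so were 83.2% of all 6370 tested genes, on a scale set by Krt14, which itself stood higher in both AAV-Fgf7 libraries. The untested Itga3 went the other way, with 0.404 and 0.521 counts per 100 Krt14 counts in AAV-Fgf7 ears of rats 1 and 2, against 0.361 and 0.360 in AAV-control ears. Krt14 was the only basal marker used as a scale. Its log2 fold change of 1.54 was above those of Krt5 (1.41), Trp63 (0.90) and Krt15 (0.39), so these values do not stand for basal keratinocytes as a whole.

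Over all genes, the edgeR quasi-likelihood test called 0 of 6370 (0.0%) at an adjusted p under 0.05, and 148 (2.32%) had an unadjusted p under 0.05. DESeq2 called 4 genes and limma-voom 0. Among the 7 tested members, 0 were called by any of these tools and 0 had an unadjusted p under 0.05. Their log2 fold changes ran from -0.13 for Lamb3 to 0.75 for Itgb4 with a median of 0.03, beside a median of -0.02 over all tested genes. Both AAV-Fgf7 libraries lay above both controls for 0 of the 7 (14.8% of all tested genes) and below both for 0 (13.3%). With the columns assigned to rats as here, the AAV-Fgf7 ear was higher in both rats for 0 of the 7 (21.0% of all tested genes). It was lower in both for 0 (19.9%). Itga6, Itgb4 and Plec were lower in rat 1 and higher in rat 2, a pattern of 29.9% of all tested genes, and Dst, Lama5, Lamb3 and Cd151 had the opposite one, shared by 29.2%. In TMM-scaled CPM, the AAV-Fgf7 ear of rat 2 was the highest of the 4 libraries for 3 of the 7 (25.1% of all tested genes). The AAV-control ear of rat 2 was highest for 4 (29.3%), and with library totals only it stayed so for Lamb3 alone. In rat 2 the AAV-Fgf7 ear was over 2-fold higher for 1 member, Itgb4 (7.41% of all tested genes), and over 2-fold lower for 0 (9.56%). In rat 1 it was over 2-fold higher for 0 (6.94%) and over 2-fold lower for 0 (4.74%).

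**Figure D3:**
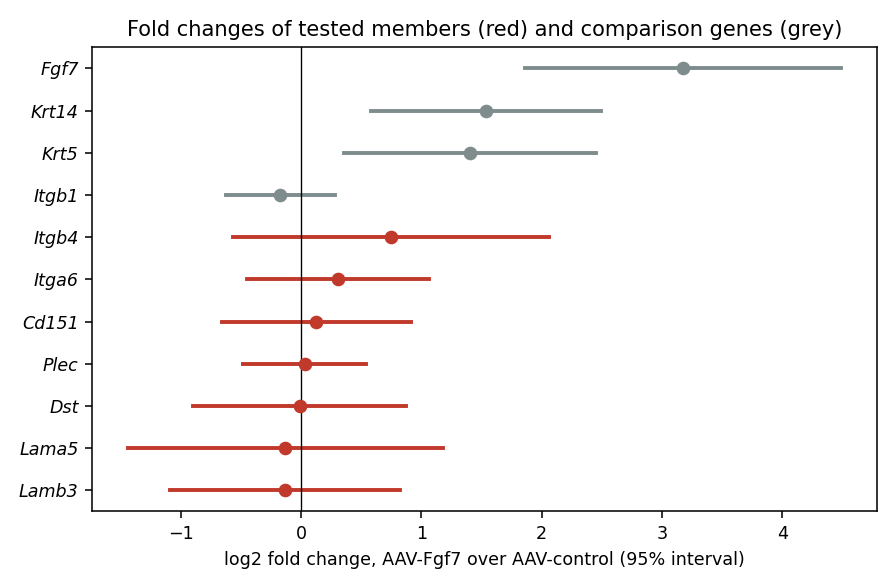
Log2 fold changes of AAV-Fgf7 over AAV-control ears from edgeR, with 95% intervals as horizontal lines, for the 7 tested members (red) and for Fgf7, Krt14, Krt5 and Itgb1 (grey). The interval of every tested member includes 0, and no gene shown passed the adjusted threshold.

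The intervals differed in width between the members, and a p above the threshold does not show that a member was equal in the groups. The log2 fold change of Krt14 was 1.54 (SE 0.39), a value inside the interval of Itgb4 and above the intervals of the other 6 tested members. The interval of Krt14 itself ran from 0.59 to 2.49. It overlapped those of all tested members except Plec, whose interval ended at 0.54. Whether these members differ from Krt14 in their response was not tested. Krt5, the partner keratin of Krt14, had a log2 fold change of 1.41 (SE 0.43), and edgeR gave both keratins an adjusted p of 0.9995.

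Other adhesion genes were read from lists chosen for their place in the same structures. Of 25 other basement membrane and hemidesmosome genes, 22 had a count, 12 were tested and 0 were called, with 6 positive and 6 negative log2 fold changes around a median of -0.0023. Agrn, which encodes the heparan sulfate proteoglycan agrin, stood at 81.0 and 90.4 CPM in AAV-Fgf7 ears of rats 1 and 2, against 57.8 and 71.1 CPM in AAV-control ears, and was the 1 gene of these 12 whose groups did not overlap, beside 14.8% of all tested genes above and 13.3% below both controls. Its log2 fold change was 0.41 (SE 0.25). The laminin chain genes Lamc1 and Lamb2 had values of 0.25 (SE 0.24) and -0.63 (SE 0.42), and Nid2, which encodes the laminin-binding linker nidogen, had -0.34 (SE 0.52). Dag1, which encodes the laminin receptor dystroglycan, had the highest level per length of this list (31.7 FPKM) and a log2 fold change of -0.08 (SE 0.28).

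Integrin genes outside the set gave no calls. Of 22 other integrin genes, 15 had a count and 6 were tested, with 0 called and 5 of the 6 values negative (median -0.20). Itgb1, which encodes the beta subunit shared by most laminin- and collagen-binding integrins, was by far the highest at 256 FPKM. It stood at 931 and 1047 CPM in AAV-Fgf7 ears of rats 1 and 2, against 1033 and 1196 CPM in AAV-control ears, a log2 fold change of -0.17 (SE 0.19). The alpha subunit genes Itga5, whose product binds fibronectin, and Itga9 had values of -0.22 (SE 0.28) and -0.85 (SE 0.82), and the beta subunit gene Itgb8 had -0.30 (SE 0.58).

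Among 5 other plakin genes, 3 were tested and 0 called, and the highest values were those of desmosomes, the junctions between keratinocytes. Dsp, which encodes desmoplakin, had 528 and 727 CPM in AAV-Fgf7 ears of rats 1 and 2, against 358 and 402 CPM in AAV-control ears. For Dsp the log2 fold change stood at 0.72 (SE 0.22), and the edgeR adjusted p at 0.9995 (0.0175 unadjusted). Ppl, which encodes periplakin, had 200 and 201 CPM, against 155 and 139 CPM, and a log2 fold change of 0.45 (SE 0.19). For Dsp and Ppl both AAV-Fgf7 libraries lay above both controls, as for 14.8% of all tested genes, and Macf1, a linker of actin and microtubules, stood at -0.02 (SE 0.23). Whether these plakins differ from Plec and Dst in their response was not tested.

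Tetraspanin and focal adhesion genes gave no calls either. Of 23 other tetraspanin genes, 10 were tested, 9 had negative values (median -0.16) and 2 had both AAV-Fgf7 libraries under the controls (13.3% of all tested genes did). These were Cd63, a tetraspanin of endosomes, with a log2 fold change of -0.78 (SE 0.22), and Tspan18, with -0.97 (SE 0.48), while Tspan5 and Tspan9 had -0.26 (SE 0.34) and -0.61 (SE 0.75). Tspan4 had the highest level per length (91.2 FPKM) and a value of -0.22 (SE 0.28). Of 20 focal adhesion linkers, 17 were tested, 8 positive and 9 negative (median -0.03). Of these, 3 lay above both controls, beside 14.8% of all tested genes, and 2 below both, beside 13.3%. The lowest p-values were those of Lims1 at -0.46 (SE 0.27), Fermt2, which encodes the integrin activator kindlin, at -0.35 (SE 0.27), Actn1, an actin crosslinker, at 0.39 (SE 0.32), and Tns1 at -0.27 (SE 0.32). Flna, which encodes filamin A and had the highest level at 291 FPKM, had a value of 0.0048 (SE 0.22).

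**Figure D4:**
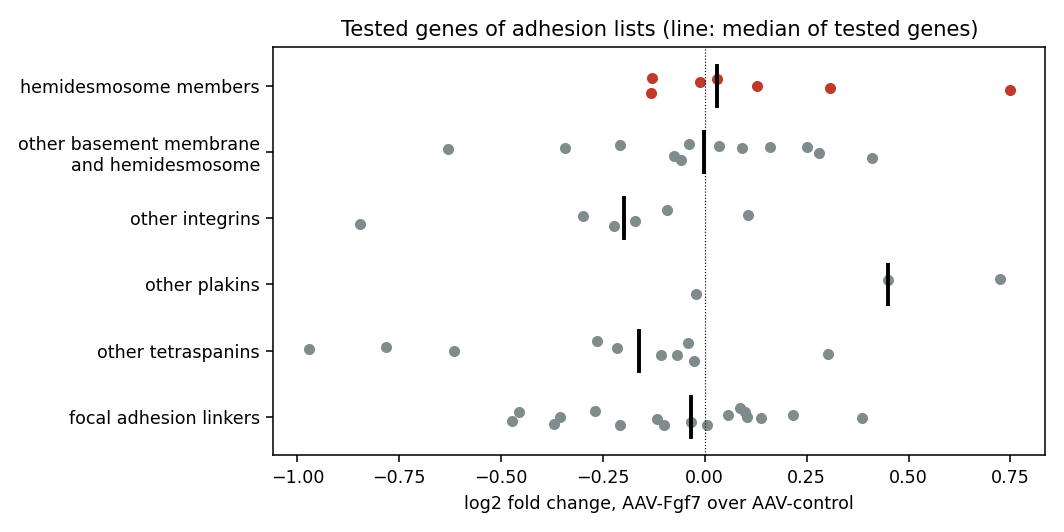
Log2 fold changes of AAV-Fgf7 over AAV-control ears for the tested genes of the hemidesmosome set (red) and of 5 other adhesion lists (grey), with 1 point per gene and a black line at the median of the tested genes. The medians run from -0.20 for other integrins to 0.45 for the 3 tested plakins, and no gene passed the adjusted threshold.

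The pattern over the 4 libraries was matched closely by other genes. The 3 tested genes nearest to Itgb4, by the root mean square difference of log2 CPM centred on each gene's mean, were Ttll5 (0.0599), Def6 (0.0601) and Nmt2 (0.0669). Those nearest to Itga6 were March7 (0.0128), Mcts2 (0.0275) and Fkbp4 (0.0325). With 4 libraries, such a likeness is a description of levels.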

How the data were processed

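Raw counts and FPKM of the same 54532 genes were deposited by the authors. Aligner and counter were not given in the sources used here. Rnor_6.0 (rn6) was the build in the submitters' processing notes, whereas every gene identifier and coordinate in the tables is of mouse, with no mouse build named. Per the file headers, FPKM columns hold 1 library each, and 2 further columns hold the authors' group means, which were not used. The listed gene length, in bases, came with the deposited tables as another value per gene.

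Labels of the AAV-Fgf7 samples both point to 1 column, so the other AAV-Fgf7 column was given to rat 2 from its number and the title. Titles and design text disagree on ear side, which was not used. Nothing beyond the 2 ears of 2 rats separates the replicates, and p-values measure the spread between these libraries.

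Genes passing filterByExpr of edgeR 4.0.16 (6370, with 98.9% of counts) were compared by the two-sided quasi-likelihood test in R 4.3.3, with TMM factors (0.949 to 1.03) and Benjamini-Hochberg adjustment over all of them at 0.05. The step was tested on counts simulated with known changes, with less spread than these libraries and no differences in tissue make-up. That run does not show how often real changes are called here. CPM are counts over the TMM-scaled library total. The SE is the log2 fold change over the root of F, and 95% intervals use the fit's degrees of freedom. Counting intervals are exact (Clopper-Pearson). With so few libraries, no exact permutation test of 1 gene could reach the threshold. The rats pair the ears, yet deviations of same-rat libraries from group means correlated at r = -0.30 over 6370 genes, which are not independent. All pairs of libraries differed beyond sampling noise (chi-square per degree of freedom 6.89 to 23.9). The value was 10.7 between the ears of rat 1 and 23.9 between those of rat 2. It was 9.52 between the AAV-Fgf7 ear of rat 1 and the AAV-control ear of rat 2. Between the AAV-Fgf7 ear of rat 2 and the AAV-control ear of rat 1 it was 6.89.

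Members and lists were chosen with earlier results of these data known. All 9 members were named, with Fgf7, Itgb1, Col17a1, Krt5 and Krt14. A gene of the naming rule is not reported here. Each other list gave its up to 4 tested genes of lowest p and its gene of highest FPKM. Trp63, Ilk, Dcn and the genes of the closing observations were named after their values were seen. Alternatives used RLE factors, totals only, other filters, DESeq2 1.42.0, limma 3.58.1 (voom, and log2 of FPKM plus 1 or 0.1), the rat as a block and each library left out.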

Additional observations from a re-analysis of the deposited data

How the results depend on the processing

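No member was called under any of the 15 alternatives run. The count of genes called was 0 with edgeR and 3 with no filter on low counts, 4 with DESeq2, and from 0 to 59 when 1 library was left out (59 without the AAV-control library of rat 1, 40 without that of rat 2, 0 without either AAV-Fgf7 library), where the lone library of a group is assumed to vary like the others. With rat as a replicate block, edgeR called 0 genes (75 at an unadjusted p under 0.05), no member's call changed, and Itgb4 had a log2 fold change of 0.71. The crossed pairing of rat numbers, chosen after seeing the data, also called 0 (301 at an unadjusted p under 0.05).

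Of 105 log2 fold changes of members under alternatives, 95 kept their direction and 10 turned. With library totals only, Dst was 0.034. Leaving out 1 library gave ranges of -0.0577 to 0.593 for Itga6, 0.184 to 1.15 for Itgb4, -0.175 to 0.185 for Dst, -0.111 to 0.152 for Plec, -0.499 to 0.164 for Lama5, -0.547 to 0.47 for Lamb3 and -0.155 to 0.494 for Cd151. Scaling choices moved the median of all genes by at most 0.0391. Itga3, Lama5, Itgb4 and Col17a1 had at most 30 counts a library. Fgf7, with a log2 fold change of 3.18 (SE 0.54), also had an edgeR adjusted p of 0.9995. What limited the calls was not tested.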

Other observations

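Several basement membrane genes outside the set were counted too thinly to compare. The collagen chains of the basement membrane, Col4a1 and Col4a2, had 6 and 2, and 4 and 3, counts in AAV-Fgf7 ears of rats 1 and 2, against 4 and 6, and 3 and 9, in AAV-control ears. Col7a1, which encodes the anchoring fibril collagen beneath the hemidesmosome, had 1 count, in the AAV-control ear of rat 1. Frem2, a basement membrane gene of skin, had 13 and 4 counts in AAV-Fgf7 ears of rats 1 and 2, against 4 and 6 in AAV-control ears. Col4a3, Col4a4 and Lama1 were listed at 0, as were the kindlin gene of keratinocytes, Fermt1, and the plakin gene Eppk1.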
